A study of Homo sapiens with 8 samples.

Results

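MIR21, the gene of the microRNA miR-21, was followed through erythroid induction of K562, a human myeloid leukaemia line able to take on red cell traits. It was taken as the 3 consecutive spots whose annotated gene symbol is MIR21, which form 1 of 67 named features (3 of 621 spots, each feature having 3). Uninduced cells on day 0 were the baseline, and cells sampled on days 2, 4, 6, 8, 10 and 22 had been in serum-free StemLineII medium with erythropoietin at 7.5 U/ml and interleukin 3 at 50 ng/ml. The day 0 cells are described as not stimulated, and the labels do not say whether they had already been moved to the serum-free medium. Each of these 7 time points had 1 single-colour Cy3 array and no replicate. The extraction protocol names CD34 cells where every other label names K562, and the samples were taken to be K562. MIR144 and MIR451A, microRNAs typical of red cell precursors, are not among the named features, so the red cell state was not checked by them.

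MiR-21 is one of the microRNAs most often found at raised levels in tumours and in activated blood cells. Its gene lies at the far end of the VMP1 gene on chromosome 17 and is transcribed from a promoter of its own that answers to STAT3 and AP-1. The mature strand represses PDCD4 and other brakes on growth and survival.

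The RefSeq hairpin of MIR21 lies on the plus strand of GRCh38.p14 at chr17:59841266-59841337 and is 72 bases long. It is shown because a gene symbol names the whole hairpin and not the arm that a probe reads. Capitals mark the listed mature strand, miR-21-5p, at bases 8 to 29.
MIR21 hairpin: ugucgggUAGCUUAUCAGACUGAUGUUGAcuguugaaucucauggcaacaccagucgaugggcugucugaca

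The next 2 sequences are the mature strands that share the miR-21 seed, bases 2 to 8, here in capitals. Of 2545 mature strands in the RefSeq table, only these 2 carry it, and MIR590 is not among the named features.
hsa-miR-21-5p: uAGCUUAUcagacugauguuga
hsa-miR-590-5p: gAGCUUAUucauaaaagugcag
Of the 67 named features, 65 had mature sequences in that table, 117 in all. Apart from miR-21-5p itself, 0 of these carried the seed. Aligned to miR-21-5p without gaps, the most matching bases were 13 of 22, in miR-374a-3p. Matching bases were counted with mismatches allowed between them. The probe sequences were not used here.

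MIR21 was among the 5 brightest features of every array up to day 10, and its signal on day 22 was near that of microRNAs from foreign tissues. Signal is given in units above the dimmest spot of the same array, because the deposited values have the mean of each array subtracted and their true zero is unknown. On day 0 the 3 spots read 2683, 2882 and 4455 units, a mean of 3340 ± 971 (SD, n = 3 spots). On day 2 they read 1738, 1849 and 2128 units, a mean of 1905 ± 201. On day 4 they read 4396, 4293 and 4563 units, a mean of 4417 ± 136. These are the lowest and the highest mean readings of MIR21 up to day 10 on this scale.

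On day 6 the spots read 3753, 3698 and 3922 units, a mean of 3791 ± 117 (SD, n = 3 spots). On day 8 they read 3358, 3112 and 2880 units, a mean of 3117 ± 239, and on day 10 they read 2098, 1894 and 1965 units, a mean of 1986 ± 104. On day 22 they read 128, 109 and 135 units, a mean of 124 ± 13.5. From highest to lowest the order was thus days 4, 6, 0, 8, 10, 2 and 22. The day 0 spots overlapped those of days 4, 6 and 8, and the spots of days 2 and 10 overlapped each other. Every day 22 spot lay below every spot of the other arrays. This SD of spots shows the error within 1 array and not the spread between arrays or cultures. The brightest MIR21 spot was the third on days 0, 2, 4, 6 and 22 and the first on days 8 and 10. Total brightness differed between arrays: the brightest spot of an array lay between 15443 units above the dimmest on day 0 and 554 on day 22, so these readings do not by themselves compare days. In a whole-culture sample, fewer cells carrying miR-21 and less miR-21 per cell cannot be told apart.

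**Figure D1:**
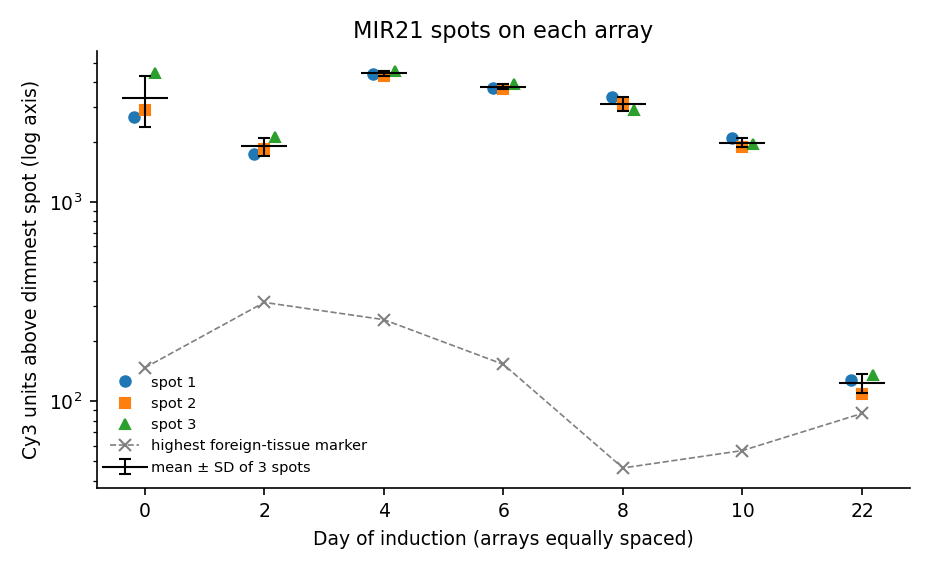
Each point is 1 MIR21 spot in Cy3 units over the dimmest spot, plotted on a log axis by day of induction; black bars give the mean ± SD of 3 spots, and crosses the highest of 6 foreign-tissue marker features. All MIR21 spots up to day 10 lie at 1738 units or more and far above the markers, and those of day 22 lie between 109 and 135 units, where the highest marker mean is 87.

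MicroRNAs of tissues foreign to these cultures give the signal seen without expected expression. Of that marker list, 6 were among the named features: MIR367, MIR371A, MIR372 and MIR373, which are embryonic, the islet microRNA MIR375 and the epithelial MIR429. Whether unnamed features hold other listed markers is not known here. The highest marker feature read 147, 314, 257, 153, 46.3 and 56.7 units in turn up to day 10. MIR21 stood clear of these on all 6 arrays. On day 22 the markers ranged from 42.3 to 87.0 units in mean, and the highest single marker spot read 119 units, above the lowest MIR21 spot at 109. At the level of single spots MIR21 was thus not fully separated from the markers on day 22.

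Within each array, MIR21 took its largest part of the signal on day 8. This share needs no scaling between arrays. With the dimmest spot as zero, MIR21 made up 5.41% of the summed signal of all features on day 0, then 2.52% on day 2 and 4.08% on day 4. It made up 7.41%, 11.2% and 7.60% on days 6, 8 and 10, and 0.746% on day 22. With the array median as zero the shares were 7.61%, 5.09%, 7.34%, 12.3%, 15.3%, 12.1% and 1.12% in the same order. Both measures put day 2 lowest before day 22, and day 8 highest.

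Counted from the brightest of all features, MIR21 was at place 4 on days 0 and 2, at 5 on day 4 and at 2 on day 6. It was the brightest feature on days 8 and 10 and stood at place 22 on day 22. On days 8 and 10 its 3 spots were the 3 brightest of the 621 on the array, while on day 22 they held places 55, 67 and 96. Among the 67 named features it was second to MIR20A up to day 6, first on days 8 and 10, and at place 11 on day 22. Probes differ in affinity, so a place describes how an array looked and does not rank abundance.

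The share of signal showed no monotonic relation to sampling order over the 7 arrays, which may not be independent cultures. Spearman's rho was 0.107 (exact two-sided permutation p = 0.840 over 5040 orderings) and Pearson's r was -0.0293 (exact permutation p = 0.952). Adjusted over these 2 relations by Benjamini-Hochberg, both p were 0.952. Leaving out day 22 alone gave a rho of 0.771 (exact permutation p = 0.103, n = 6 arrays). Leaving out the 2 arrays farthest from the middle, days 0 and 22, gave an r of 0.806 (exact permutation p = 0.100, n = 5 arrays) and a rho of 0.900 (exact permutation p = 0.0833). The size of the relation therefore rested in large part on the last array, and its p missed the threshold with and without it.

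**Figure D2:**
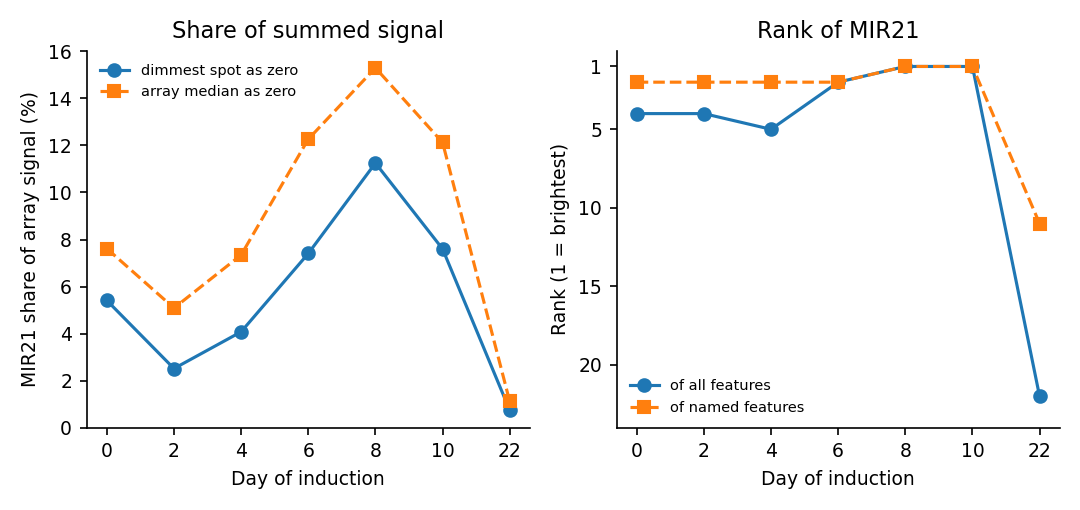
The left panel plots the percentage of the summed signal of each array that MIR21 took, with the dimmest spot or the array median as zero; the right panel plots its rank by brightness, where 1 is the brightest. The share was highest on day 8 (11.2% and 15.3%) and lowest on day 22 (0.746% and 1.12%), and the rank was 1 on days 8 and 10 only.

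To compare days, values were put on a log2 scale and quantile-normalized, which gives all arrays the same distribution. Levels of MIR21 were then 10.69, 10.72 and 10.56 on days 0, 2 and 4. They were 11.29 on day 6, 11.66 on days 8 and 10, and 8.38 on the last array. The equal values of days 8 and 10 follow from the method: the 3 MIR21 spots held the top 3 places on both arrays and so received the same 3 values. Quantile normalization can therefore show no difference between days 8 and 10 for MIR21. After quantile normalization the values of days 0, 2 and 4 lay within 0.16 of each other, with spot SDs of 0.33, 0.21 and 0.15. This closeness depended on the scaling. The same days were at 11.68, 10.86 and 12.10 without normalization, and at 11.68, 10.12 and 11.08 when arrays were centred on the median. Without normalization MIR21 was 0.64 lower on day 10 than on day 8 on the log2 scale, while the median feature was 0.02 higher.

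The straight-line trend of MIR21 over sampling order did not pass. Between the ends of the time course the line gave a log2 change of -1.26 ± 1.06 (SE, adjusted p = 0.697, n = 7 arrays, limma with Benjamini-Hochberg adjustment over all features). Without day 22 the fitted change turned to 1.75 ± 0.50, extended over the same span, with an adjusted p of 0.287 (limma, Benjamini-Hochberg). By this limma test 1 feature of the table fell (0.483%) and 0 rose (0.00%), while 22 had an unadjusted p under 0.05, 10 of them with positive changes. The feature that fell was MIR19A.

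The curved fit gave MIR21 the highest bow of any named feature, and this also missed the threshold. The bow is the fitted level in the middle of the time course less the straight line between its ends. A positive value is called a peak here and a negative one a trough. A level course with a late drop also gives a positive bow, so the name does not mean that the middle was highest. For MIR21 it was 1.99 ± 0.51 on the log2 scale (SE, n = 7 arrays, adjusted p = 0.0763, limma with Benjamini-Hochberg), against a median of -0.03 over all features. A single unnamed feature, starting at row 175 and picked out after its value was seen, had a higher bow, at 2.22. A peak passed in 3 features (1.45%) and a trough in 3 others (1.45%). MIR15B, with a bow of 1.84 ± 0.39 (SE), was the named feature that passed with a peak (adjusted p = 0.0450, limma with Benjamini-Hochberg).

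Without normalization MIR21 passed the limma curvature test (bow 2.58 ± 0.56, SE, Benjamini-Hochberg adjusted p = 0.0351), among the 1.45% of features that passed with a peak. The bow was 2.22 when arrays were centred on the median and 2.08 when scaled to the 75th percentile, with adjusted p of 0.136 and 0.379 (limma, Benjamini-Hochberg). With a term for the arrays of days 8 to 22 it was 1.98 ± 0.37 (SE) and passed (adjusted p = 0.0156, limma, Benjamini-Hochberg). The labels name no batch, and such a step between arrays cannot be told apart from time. Without day 22 the bow was -0.45 ± 0.61 (SE, Benjamini-Hochberg adjusted p = 0.824 in limma), so the peak rests on the low day 22 reading.

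**Figure D3:**
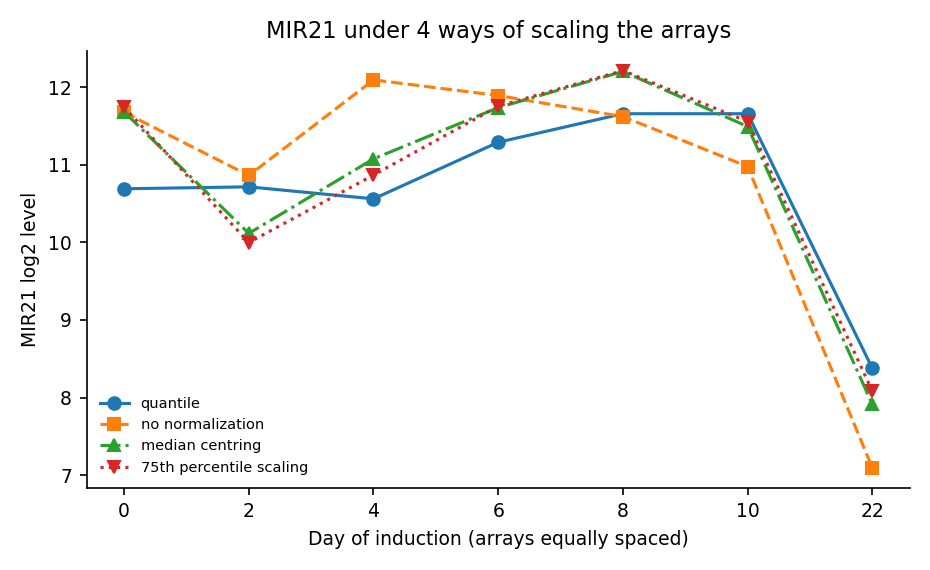
MIR21 log2 levels by day of induction after quantile normalization, without normalization between arrays, and with arrays scaled to their 75th percentile or centred on the median. All 4 lines are lowest on day 22, from 7.09 to 8.38; they differ on which earlier array is highest, day 4 without normalization and day 8 in the others (tied with day 10 after quantile normalization).

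**Figure D4:**
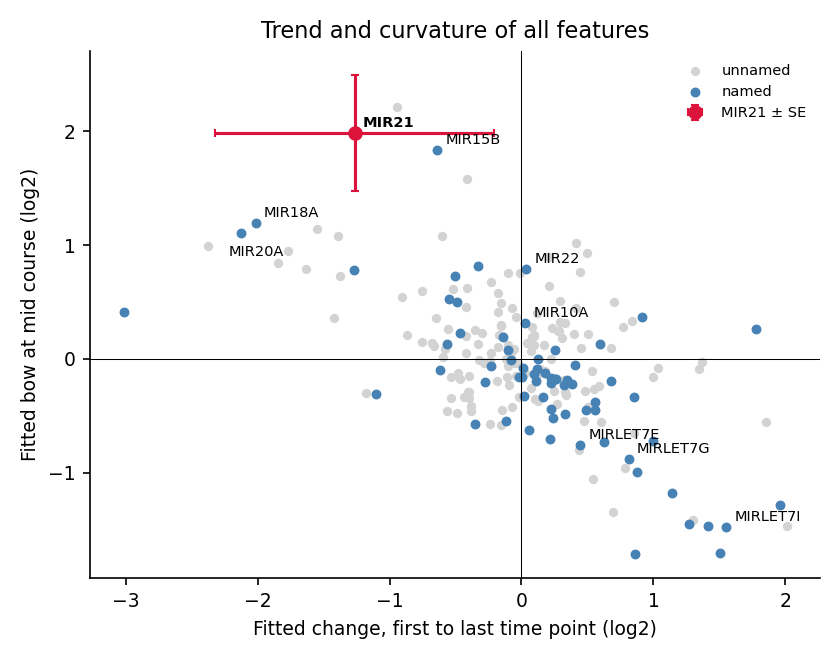
Each point is 1 feature, placed by its fitted log2 change between the ends of the time course and by its fitted bow at mid course, both after quantile normalization; error bars on MIR21 are SE. MIR21 lies at -1.26 and 1.99, with the highest bow of the named features, next to MIR15B at 1.84.

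Between consecutive arrays, the largest difference of MIR21 was that between days 10 and 22. This was also the longest interval between arrays, with day 15 left out. On the log2 scale MIR21 on day 22 stood at -3.28 ± 0.31 (combined SD of the spots) from day 10 after quantile normalization. Without normalization the difference was -3.89. On both scales this was the most negative difference of all features, MIR21 being the brightest of them on day 10. The day 10 part of the combined SD, 0.113, is fixed by the quantile method, as on day 8, and does not measure spot error. The spot SDs without normalization were 0.073 on day 10 and 0.145 on day 22. At least 1 on the log2 scale lower were 13.0% of features after quantile normalization and 14.5% without it. This is a difference between single arrays with no replicate check and no test. Against day 0, MIR21 on day 22 stood at -2.32 after quantile normalization, where 12.1% of features were lower by at least 1, and at -4.59 without normalization, where 27.5% were. Among all features these differences held places 6 and 3 from the lowest.

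Few other named features went from so bright a reading on day 10 to so dim a one on day 22. Above the highest marker spot of day 10, at 61 units, stood 36 named features, a limit set after the values were seen, and 10 of them read under 50% of their day 10 signal on day 22. MIR21 read 1986 units and then 124. MIR20A of the MIR17-92 cluster, a MYC-driven promoter of proliferation, read 1449 and then 136, MIR15B 620 and then 95.3, and MIR18A 447 and then 70.3. Unnamed features, picked out after their values were seen, also took this course. That starting at row 40 read 1203 and then 138, and that at row 601 read 900 and then 100. The one at row 202 went the other way, at 413 and then 537. The day 22 readings of MIR15B and MIR18A lay below the highest marker spot of that array, at 119, and those of MIR21 straddled it, so the share of signal left is bounded and not measured. On day 22 the named features brighter than MIR21 were MIR33A at 468 units, MIRLET7I at 333, MIR345 at 301, MIR450A1 at 273, MIR449A at 235, MIR328 at 232, MIR26B at 209, MIRLET7G at 207.3, MIRLET7E at 160 and MIR20A at 136.

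After quantile normalization, MIR21 moved ahead of other features in the middle of the time course. Between days 4 and 6 its quantile-normalized difference was 0.73, at place 6 of all features from the highest. Without normalization its largest gain over the median feature between consecutive arrays came earlier. It was 0.95 from day 2 to day 4, against 0.67 from day 4 to day 6. On days 8 and 10 it stood 0.97 above day 0, at place 7 in both, where 2.42% and 1.93% of features were higher by at least 1. Without normalization its day 8 reading was -0.05 from day 0 while the median feature was at -0.50, which put MIR21 at place 26. On day 10 it was at -0.70 against a median of -0.43, at place 149. Between these scales, a gain of MIR21 over most other features thus held on day 8 on both, and on day 10 after quantile normalization only. The quantile-normalized value of days 8 and 10 is the highest that 3 spots can take. The share of signal was higher on day 10, at 7.60%, than on day 0, at 5.41%.

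MIR20A was the sole named feature above MIR21 in mean level, at 10.81 against 10.71 on the quantile-normalized log2 scale over 7 arrays. The next levels were 9.45 for MIR15B, 9.35 for MIR33A and 9.32 for MIR18A. A difference of 2 features within an array needs no centring of arrays. Probe affinity does not fully cancel in its change between arrays, because the true zero is unknown and an offset was added before taking logs. The offset shrinks the difference most where both features are dim, as on day 22. Without normalization the log2 difference of MIR21 less MIR20A was -1.88 on day 0 and -0.25 on day 2, then -0.02 and -0.05 on days 4 and 6. It was 0.77 and 0.45 on days 8 and 10. On day 22 it was -0.12, where MIR21 read 124 units, MIR20A 136 and the highest single marker spot 119. Across the step from day 0 to day 2 MIR20A read 12423 ± 3699 and then 2258 ± 213 units (SD of 3 spots), and MIR21 read 3340 and then 1905. On day 22 MIR21 was at 8.38 and MIR20A at 8.65 after quantile normalization.

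**Figure D5:**
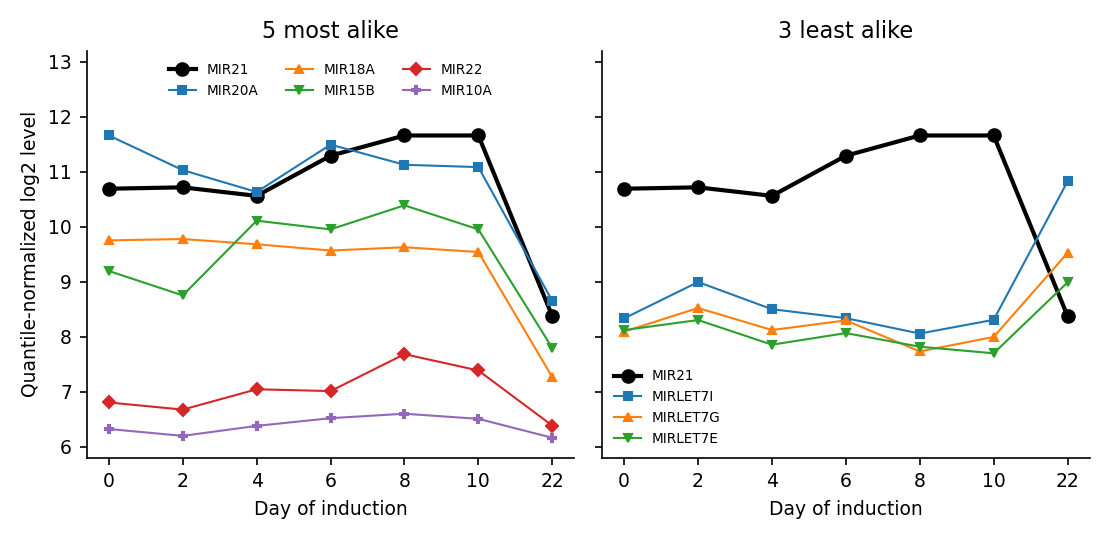
Quantile-normalized log2 levels by day of induction for MIR21 with the 5 named features of the highest correlation with it (left) and the 3 of the lowest (right). The left profiles share a low day 22 value, and the right ones are highest on day 22.

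The named profiles most like MIR21 were chosen by Pearson's r over the 7 quantile-normalized arrays, which share the same 7 hybridizations. MIR20A had an r of 0.882, MIR18A of the same cluster 0.877, MIR15B, a sequence relative of the cell cycle repressor miR-16, 0.870, MIR22, a microRNA linked to red cell maturation, 0.833, and MIR10A 0.812. MIR10A lay below the highest marker feature on all 7 arrays and is not shown to be expressed. MIR22 lay above it on days 4, 8 and 10 only, at 306, 91.3 and 82.7 units. Without day 22 the correlations were 0.0953 for MIR20A, -0.806 for MIR18A, 0.597 for MIR15B, 0.835 for MIR22 and 0.840 for MIR10A. The likeness to MIR20A and MIR18A thus rested on the day 22 array. For MIR10A it depended on scaling, with an r of 0.0590 on median-centred arrays and 0.0475 on arrays scaled to the 75th percentile. For MIR22 these were 0.568 and 0.486.

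The sequences of the leading 3 are shown to set their seeds, in capitals, beside that of miR-21-5p. The listed 5p strands are given, since the symbols do not name the arm.
hsa-miR-20a-5p: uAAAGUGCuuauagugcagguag
hsa-miR-18a-5p: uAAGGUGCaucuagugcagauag
hsa-miR-15b-5p: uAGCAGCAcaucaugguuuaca
No seed among them is that of miR-21-5p. MIR21 is 1 of 5 named features on chromosome 17. Of the others there, MIR22 and MIR10A are named above, MIR338 had an r of -0.817 with MIR21 and MIR423 one of -0.116. MIR338 lay below the highest marker feature on every array and is not shown to be expressed. Its r without day 22 was -0.195.

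The 3 named profiles least like MIR21 were MIRLET7I with an r of -0.950, MIRLET7G with -0.929 and MIRLET7E with -0.922, members of the let-7 family of growth gene repressors. Outside the family MIR345 and MIR33A were nearly as low, at -0.905 and -0.900. Within it MIRLET7D had -0.506, MIRLET7B -0.261, MIR98 -0.151 and MIRLET7C 0.0168, so the low values were not shared by the whole family. Without day 22 the correlations were -0.642 for MIRLET7I, -0.588 for MIRLET7G, -0.617 for MIRLET7E, -0.311 for MIR345 and -0.635 for MIR33A. The lowest values thus rested in part on the day 22 array. The 5p strands of the lowest 3 share a seed, in capitals, and much of the rest, with 17 to 20 matching bases of 22 in each pair.
hsa-let-7i-5p: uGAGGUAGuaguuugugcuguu
hsa-let-7g-5p: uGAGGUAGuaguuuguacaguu
hsa-let-7e-5p: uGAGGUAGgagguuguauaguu
Whether their probes read them apart was not tested. After quantile normalization MIRLET7I was at 8.34 on day 0, at 8.06 on day 8 and at 10.83 on the last array. Its unscaled readings on these arrays were 310, 148 and 333 units above the dimmest spot. The size of its gain over day 0 thus depended on the scaling. Without normalization the correlations were 0.0709 for MIRLET7I, 0.243 for MIRLET7G and 0.366 for MIRLET7E, so the opposition appeared only where arrays were scaled to each other. Of the 66 other named features, 22 had a positive r with MIR21 after quantile normalization and the median r was -0.446, against a median of 0.381 without normalization.

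MIR21 can be set beside lists of microRNAs with related roles. Of 20 listed tumour-promoting microRNAs other than MIR21, 7 were among the named features, 1 fell (MIR19A) and 0 rose in the trend test, and 0 passed the curvature test. Their median bow was 0.52 and their median fitted change -0.55, against -0.03 and 0.03 over all features. MIR20A had a bow of 1.11, MIR18A of 1.19, MIR19A of 0.42 and MIR25 of 0.73. All 4 lie below the 1.99 of MIR21, and the differences were not tested.

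Of 29 listed tumour suppressors, 10 were among the named features and 0 passed either test. Their median bow was -0.07 after quantile normalization and 0.41 without normalization, where all features had a median of 0.26. MIRLET7I had a bow of -1.48, MIRLET7G of -0.88, MIRLET7E of -0.76 and MIR26B of -1.45. Of the 10 suppressors, 4 had a positive bow, MIR15A among them. The list of microRNAs linked to red cell maturation had 4 of 11 members among the named features, MIR15B, MIR15A, MIR96 and MIR22. Of these 0 passed the trend test and MIR15B passed the curvature test, and MIR15A had a bow of 0.78, MIR22 of 0.79 and MIR96 of -0.12. MIR342 and MIR424 were the named members of 10 myeloid and lymphoid microRNAs, with bows of -0.31 and -0.05 that did not pass. Of 7 microRNAs known to decline in red cell precursors, 0 were among the named features, and whether unnamed features hold them is not known here.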

How the data were processed

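MicroRNA from K562 cells was labelled with Cy3 using Ambion kits, per the labels. The authors deposited linear Cy3 intensity values less the array mean: each column averages 0. The scanner and any background correction are named in none of the sources used. No scaling between arrays is visible, and both zero and scale stay unknown. The day 15 column equalled the mean of days 10 and 22 in 621 of 621 rows (within 0.011) and was left out. All 8 columns were matched by accession. All 67 gene symbols matched RefSeq by gene identifier.

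The values were corrected with normexp (offset 50, limma 3.58.1, R 4.3.3), log2-transformed, quantile-normalized and averaged over 3 spots. Normexp and its offset shrink log2 differences of dim features. Trend and curvature over sampling order (day 15 keeping its place, 7 steps in all) were tested with lmFit and eBayes on all features, with 5 and 4 residual degrees of freedom, Benjamini-Hochberg adjustment and a threshold of 0.05. Both fits were tested on simulated data. The p-values measure only the scatter between these arrays, whose number limits the precision. Correlations between features are descriptions. Named were MIR21, the feature above and the 3 below it in level, the 5 most and 3 least correlated features, and up to 4 members per list by level. The members and lists were chosen with earlier results of these data known. Alternatives were other scalings, backgrounds, offsets, a filter, time in days, a term for the arrays of days 8 to 22, single spots and leaving out each array. Figures used matplotlib 3.10.9 in Python 3.11.15.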

Additional observations from a re-analysis of the deposited data

How the results depend on the processing

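The fitted change of MIR21 missed the threshold in all 19 alternatives (adjusted p 0.126 to 0.808, limma with Benjamini-Hochberg) and was negative in 18. Leaving out 1 array gave -1.95 to 1.75, with day 22 the array whose loss turned the sign. The bow of MIR21 was positive in 18 of 19 alternatives and passed in 8 (adjusted p 0.00279 to 0.824 over the 19, limma with Benjamini-Hochberg). It passed without normalization (2.58), among features above the median level (1.99), on days in place of order (1.95), with a term for the arrays of days 8 to 22 (1.98), and with spot 1 (2.06) or spot 3 (1.78) alone. It also passed without day 0 (2.63) or day 10 (1.78), and leaving out 1 array gave -0.45 to 2.63. Quantile normalization gave MIR21 one value for days 8 and 10, which limits every fit that uses it. For the share of signal, rho was -0.0857 to 0.771 when 1 array was left out, negative without day 6 (-0.0857), day 8 (-0.0286) or day 10 (-0.0286).

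The number of features that passed the trend test was 1, against 9 without normalization, 2 after median centring or 75th percentile scaling, 0 with an offset of 200, 10 on days, 0 with the term for days 8 to 22, and 0 to 4 with 1 array left out. For curvature it was 6, against 3 without normalization, 2 after median centring, 0 after 75th percentile scaling, 1 with an offset of 200, 10 among features above the median level, 17 with the term for days 8 to 22, 15 and 11 with spot 1 or 3 alone, and 0 to 48 with 1 array left out, the highest without day 0 (0 without days 4, 6, 8 or 22). The day 22 less day 10 difference was negative in all 9 alternatives, from -3.89 to -2.80, and that from day 0 from -4.59 to -1.91. Of the 5 profiles most like MIR21, 2 stayed among the top 5 without day 22. No paired analysis was possible because each time point had 1 array.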

Other observations

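The day 15 column, which is the mean of the day 10 and day 22 columns, holds MIR21 at 1045 units above its dimmest spot. This value adds no measurement of MIR21 between those days.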
